A study of Mus musculus with 4 samples.

Results

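The enzymes that build and cap the sugar chains of mucins were examined in colon epithelium of mice with dextran sodium sulphate (DSS) colitis. They were taken by gene symbol: Cmah, C1galt1, C1galt1c1 and the numbered genes of the Fut, St3gal, St6gal, St6galnac, St8sia, B3gnt, B3galt, B4galt, Galnt and Gcnt families. The array named 72 such genes, of 18193 genes in all, through 160 probe sets, and each gene was represented by its probe set of highest mean. One of the 72, Fut4-ps1, is a pseudogene by its name. The Cre-positive mice were Stat3 flox/flox mice with VillinCre (n = 2 arrays). In them the recombinase is made in intestinal epithelial cells and can delete the floxed part of Stat3, a transcription factor switched on by cytokines. The Cre-negative mice were Stat3 flox/flox without the Cre (n = 2 arrays). The mice of all 4 samples drank 2.5% DSS, a polymer that injures the colon lining, for 5 days. Floxed Stat3 and colitis were therefore shared by both groups. No untreated mice were analysed here, ages were not given in the labels, and other cells of the colon keep their Stat3.

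Mucins are proteins whose long serine- and threonine-rich stretches carry dense O-linked sugar chains. Polypeptide GalNAc-transferases attach the first sugar in the Golgi, core enzymes add the next ones, galactosyl- and N-acetylglucosaminyltransferases lengthen or branch the chain, and fucose or sialic acid closes it. In the colon these chains give mucus its gel properties, protect the protein from bacterial proteases and feed or anchor resident bacteria. Several of the same enzymes also act on N-linked chains, glycolipids or proteoglycans.

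Values are log2 of the authors' GC-RMA intensity, a background-corrected array signal. On this scale transcripts without detectable signal lie near log2 2 to 3, and levels of different probe sets cannot be set against each other. Genes with a mean at or below log2 2.81 (the 40th percentile of all probe sets) were left untested, which left 12659 genes, 51 of them glycosylation genes. Array medians lay between 9.14 and 9.42 in intensity, the 3-prime to 5-prime ratio of Actb between 1.27 and 1.42, and correlations between arrays between 0.981 and 0.994. The same ratio of Gapdh lay between 0.78 and 0.99, highest in Cre-positive array 1 and higher in array 1 than in array 2 of each group. The part of RNA quality in the differences below was not tested. Cre-positive array 1 had the lowest mean correlation with the others (0.984, against 0.990 to 0.991 for each of the remaining arrays). Stat3 itself measured 9.28 and 8.16 in the Cre-positive arrays and 10.46 and 10.50 in the Cre-negative arrays (difference -1.75, SE 0.43, limma adjusted p = 0.332), with another of its probe sets at -1.57 and the dimmest of those above the filter at 1.29, each without overlap, and whether any of them covers the deleted part is not known from the labels. Epithelial markers were bright in every array (Epcam between 14.67 and 14.94), whereas the endothelial markers Pecam1, Cdh5, Kdr, Tek and Vwf were at or below the filter and the remaining one listed, Egfl7, read 4.17 to 4.25.

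No glycosylation gene passed the test, and the sizes of the differences varied between the steps of the pathway. Of the 51 tested genes 24 (47.1%) differed by less than 0.2 either way, against 58.7% of all genes, and the median absolute difference was 0.21, against 0.16 over all genes. Among genes whose groups did not overlap, the lowest differences were those of Fut9 (-2.28), B3gnt5 (-0.71), Fut2 (-0.70), B3gnt7 (-0.68) and St6gal1 (-0.46), and the highest were those of Cmah (1.03), St6galnac1 (0.66), B4galt5 (0.46) and B4galt6 (0.41). All 5 tested fucosyltransferases and all 5 galactosyltransferases of the B3galt family had lower means in the Cre-positive group, as did 61.5% of all genes tested, while the 11 tested GalNAc-transferases stayed between -0.11 and 0.16. None of the 51 passed limma's test after Benjamini-Hochberg adjustment over all genes (smallest adjusted p = 0.244), and of all 12659 genes 0% did. Before adjustment, at p under 0.05, 4 of the 51 lay higher (all genes 2.54%) and 4 lay lower (all genes 8.51%). These counts changed with the arrays used. With 1 array left out at a time the median difference of the 51 lay between -0.03 and 0.01. The 2 arrays of each group were fully separated in 10 genes with a higher Cre-positive mean (all genes 13.5%) and in 11 with a lower one (all genes 34.7%). After each array was centred on its median, the split over all 12659 genes before adjustment was 366 higher and 392 lower, against 322 and 1077 without centring. The 51 glycosylation genes stayed at 4 higher and 4 lower, so the background beside these counts depends on the scaling. A difference of at least 0.5 either way was seen in 8, against 9.56% of all genes. The median difference of the 51 was -0.01, against -0.05 over all genes.

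**Figure D1:**
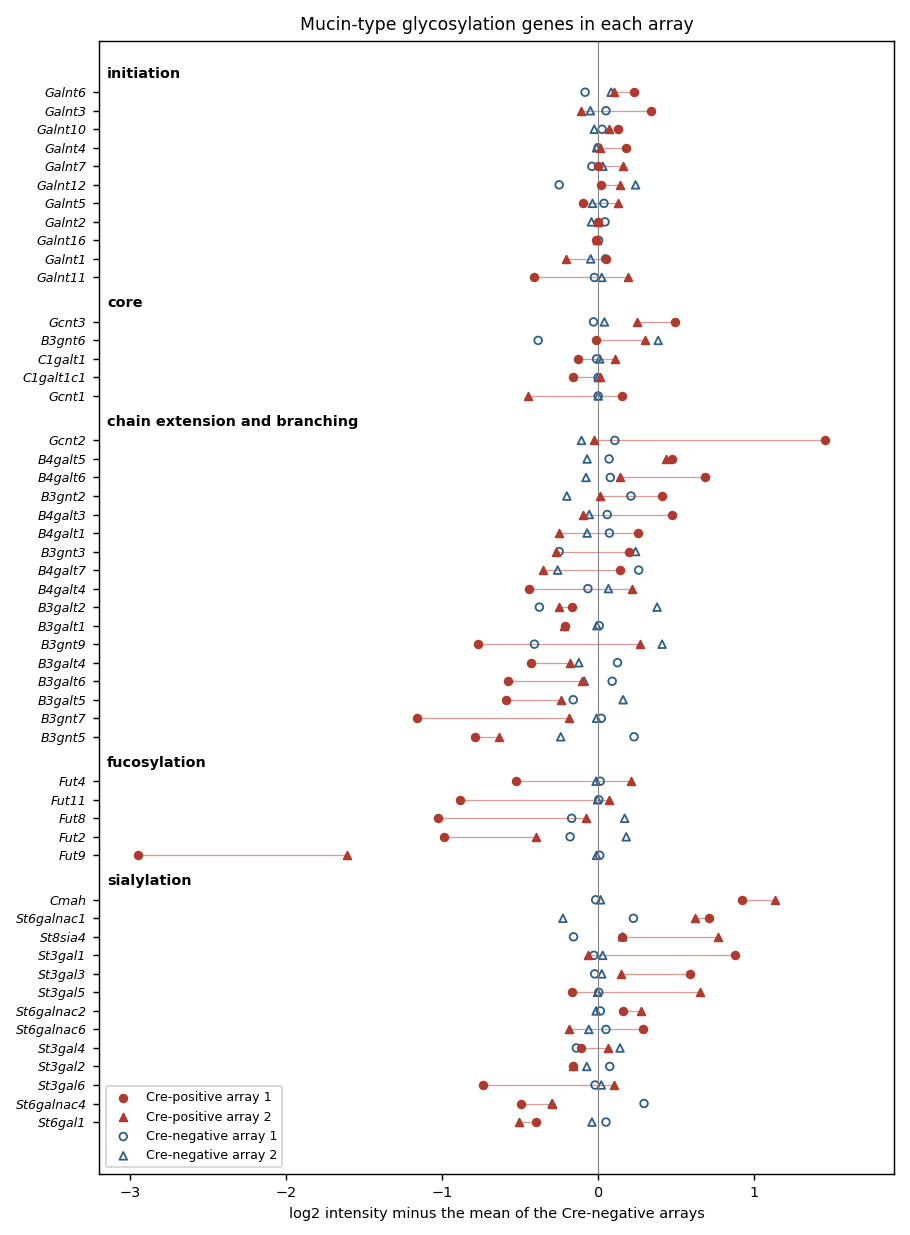
Each row is 1 of the 51 tested genes, grouped by step of the pathway, and the horizontal axis is the log2 distance of each array from the Cre-negative mean. Filled red symbols are the Cre-positive arrays and open blue symbols the Cre-negative arrays (circle, array 1, triangle, array 2), with a line joining the Cre-positive arrays. The GalNAc-transferases cluster near 0, all 5 Fut genes have Cre-positive array 1 to the left of both Cre-negative arrays, and Cmah has both Cre-positive arrays to the right.

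Over all genes tested, and likewise in the glycosylation genes, the Cre-positive arrays lay further apart than the Cre-negative arrays. The gap between replicate arrays was larger in the Cre-positive group for 36 of the 51 genes (70.6%), against 63.8% of all genes tested, with a median gap of 0.35 in the Cre-positive group and 0.11 in the Cre-negative group (over all genes 0.22 in the Cre-positive group and 0.12 in the Cre-negative group). For B3gnt7, Gcnt2 and St3gal1, among others, the group difference was mostly that of 1 array.

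Chain initiation showed the narrowest range when each gene was taken by its probe set of highest mean. Dimmer probe sets spread further, with a Galnt3 probe set at 1.58 (groups overlapping) and a Galnt10 probe set at -0.43 (no overlap). The Galnt genes encode the enzymes that link GalNAc to serine or threonine, and different members prefer different or already glycosylated peptides. Galnt12, a member abundant in digestive organs, measured 12.30 and 12.42 in the Cre-positive arrays and 12.03 and 12.52 in the Cre-negative arrays. Galnt4, which prefers partly glycosylated peptides, measured 12.57 and 12.40 in the Cre-positive arrays, against 12.39 and 12.38 in the Cre-negative arrays. For Galnt7, another member that follows earlier GalNAc-transferases, the Cre-positive arrays read 12.73 and 12.89 and the Cre-negative arrays 12.69 and 12.76. Galnt12 and Galnt7 overlapped between the groups, and the nearest Galnt4 arrays of the 2 groups, at 12.40 and 12.39, almost met. Galnt3 measured 10.73 and 10.28 in the Cre-positive arrays, against 10.44 and 10.34 in the Cre-negative arrays, again with overlap. The 95% interval of the difference was -0.20 to 0.39 for Galnt4, -0.21 to 0.39 for Galnt7, -0.51 to 0.68 for Galnt12 and -0.44 to 0.68 for Galnt3. The broadly expressed Galnt1 (-0.08) and Galnt2 (-0.002) lay nearest to 0 together with Galnt5 (0.02) and the dim Galnt16 (-0.01), Galnt10 differed by 0.10 and Galnt6 by 0.16, and Galnt11, which was lowest at -0.11, had its Cre-positive arrays on either side of both Cre-negative arrays. Of the 11, 0 reached an unadjusted p under 0.05.

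Among the core enzymes Gcnt3 stood higher and the core 1 machinery did not separate. Gcnt3, the mucin-type branching enzyme that makes core 2 and core 4, measured 12.44 and 12.20 in the Cre-positive arrays and 11.92 and 11.99 in the Cre-negative arrays. Both Cre-positive arrays lay above both Cre-negative arrays, by 0.37 on average (SE 0.12, limma adjusted p = 0.436). Its other probe sets differed by 0.21 and -0.09, both with overlapping groups. C1galt1, the core 1 synthase, measured 11.18 and 11.42 in the Cre-positive arrays, against 11.30 and 11.32 in the Cre-negative arrays, and C1galt1c1, the chaperone it needs, measured 12.35 and 12.52 in the Cre-positive arrays, against 12.51 and 12.51 in the Cre-negative arrays. Both overlapped between the groups, and the intervals of their differences ran from -0.36 to 0.35 and from -0.37 to 0.22. B3gnt6, the core 3 synthase of the colon, read 8.98 and 9.29 in the Cre-positive arrays and 8.61 and 9.38 in the Cre-negative arrays, an overlap whose interval (-0.81 to 1.09) is wide. Gcnt1, the other core 2 enzyme, had Cre-positive arrays at 8.89 and 8.28 around Cre-negative arrays at 8.73 and 8.73.

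Among the chain extension genes the lowest differences were those of B3gnt5 and B3gnt7, and the highest that of Gcnt2. Lower means were seen in 4 of 6 tested B3gnt genes (B3gnt6 included), 5 of 5 B3galt genes and 2 of 6 B4galt genes, and differences between the families were not tested. B3gnt5, which starts the lacto-series of glycolipids, measured 9.60 and 9.75 in the Cre-positive arrays and 10.62 and 10.15 in the Cre-negative arrays, a difference of -0.71 (SE 0.20, limma adjusted p = 0.397). The groups did not overlap, and its other probe set showed the same order, at 5.49 and 7.55 in the Cre-positive arrays and 8.04 and 8.56 in the Cre-negative arrays. B3gnt7, an enzyme that lengthens N-acetyllactosamine chains, measured 10.84 and 11.81 in the Cre-positive arrays and 12.02 and 11.99 in the Cre-negative arrays. Here Cre-positive array 1 carried the difference, which was -0.68 with both arrays, -0.19 without that array and -1.16 without Cre-positive array 2. B3gnt3, which extends core 1, had Cre-positive arrays at 10.86 and 10.39 and Cre-negative arrays at 10.41 and 10.90, fully overlapping. Of the remaining genes B3gnt2, a main poly-N-acetyllactosamine synthase, differed by 0.21 and B3gnt9 by -0.25, both with overlapping groups.

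B3galt5, which makes type 1 chains and extends core 3, measured 11.72 and 12.07 in the Cre-positive arrays and 12.15 and 12.47 in the Cre-negative arrays (difference -0.42, SE 0.19, limma adjusted p = 0.522). The groups did not overlap, and all 4 of its probe sets had lower Cre-positive means, by differences of -0.27 to -0.97. B3galt6 (-0.34), an enzyme of the proteoglycan linker, and B3galt4 (-0.30), which makes a ganglioside, were below both Cre-negative arrays too, and B3galt2 (-0.21) overlapped. B3galt1 had the smallest p of the family (limma adjusted p = 0.244), but at 3.36 and 3.36 in the Cre-positive arrays and 3.59 and 3.57 in the Cre-negative arrays it was dim. In the other direction B4galt5 and B4galt6, both lactosylceramide synthases, had higher means. B4galt5 measured 9.01 and 8.97 in the Cre-positive arrays and 8.60 and 8.46 in the Cre-negative arrays (difference 0.46, SE 0.12, limma adjusted p = 0.370). Its probe set carries the s suffix of sets that may cross-hybridise. B4galt6 measured 9.91 and 9.36 in the Cre-positive arrays and 9.30 and 9.14 in the Cre-negative arrays, so that only array 1 stood well above. B4galt1, the main N-acetyllactosamine galactosyltransferase, had an average difference of 0.002 (95% interval -0.63 to 0.64). Gcnt2, the I-branching enzyme, had the highest difference of these genes (0.71) through Cre-positive array 1 alone. That array read 8.85, whereas array 2 read 7.38 and the Cre-negative arrays 7.51 and 7.29. Other Gcnt2 probe sets above the filter, all dimmer, differed by -0.10 to 0.01. Most of them read 2.93 to 3.45, near the bottom of the scale, where a difference may not show.

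The upstream sequences of the genes in this step hold the few matches to TTCNNNGAA, the spaced palindrome bound by STAT factors. The RefSeq table (build GRCm38.p6) had start sites for 51 of the 72 genes, in 71 windows, and the 250 bases before each start were searched for these letters, which read the same on both strands. The letters occurred in 3 of the 71 windows (4.23%), against 7.02% of 32851 windows of all genes. Fut9, Fut2, St6galnac1 and Gcnt3 were among the genes not searched. The matching windows are shown because they are the only ones among those searched, with the match in capitals, each 5′ to 3′ on the strand of the gene. For B3galt5 (chr16:96235551-96235800, plus strand) this was 1 of several start sites and the match begins 10 bases before it. For B4galt1 (chr4:40853985-40854234, minus strand) it begins 99 bases before the start, and for 1 start of Gcnt2 (chr13:40886508-40886757, plus strand) 227 bases before it.
B3galt5: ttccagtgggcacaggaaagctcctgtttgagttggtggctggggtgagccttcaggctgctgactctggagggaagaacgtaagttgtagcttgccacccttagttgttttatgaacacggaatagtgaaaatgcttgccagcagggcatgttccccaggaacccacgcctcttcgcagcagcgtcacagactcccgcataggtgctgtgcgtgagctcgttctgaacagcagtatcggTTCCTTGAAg
B4galt1: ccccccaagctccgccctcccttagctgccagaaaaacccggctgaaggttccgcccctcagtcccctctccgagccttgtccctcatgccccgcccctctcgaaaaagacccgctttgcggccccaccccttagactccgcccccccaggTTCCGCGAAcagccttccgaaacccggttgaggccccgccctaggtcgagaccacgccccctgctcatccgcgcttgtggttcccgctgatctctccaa
Gcnt2: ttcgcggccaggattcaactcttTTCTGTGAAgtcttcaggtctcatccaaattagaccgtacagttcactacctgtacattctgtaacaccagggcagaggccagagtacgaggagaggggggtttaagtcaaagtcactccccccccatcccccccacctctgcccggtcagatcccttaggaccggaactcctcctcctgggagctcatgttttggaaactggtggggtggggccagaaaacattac
By their probe sets of highest mean the genes with a match differed in sign and size (-0.42, 0.002 and 0.71). The other Gcnt2 probe sets above the filter did not show its difference, but most of them lay near the bottom of the scale. Binding was not measured in these data.

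Fucosylation genes had the lowest median difference of the steps (-0.55), and their lower means came mainly from Cre-positive array 1. Against the Cre-negative mean the median of the 5 genes was -0.99 in Cre-positive array 1 and -0.08 in array 2. Fut9, which makes the Lewis x structure, measured 2.63 and 3.97 in the Cre-positive arrays and 5.59 and 5.57 in the Cre-negative arrays. Both Cre-positive arrays lay well below the Cre-negative arrays, and array 1 lay at the bottom of the scale. The difference was -2.28 (SE 0.50, limma adjusted p = 0.304), and -2.19 with values below the filter raised to it. Another probe set of Fut9 differed by -0.27, without overlap.

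Fut2, the enzyme that adds the terminal H-type fucose in gut epithelium, measured 10.42 and 11.01 in the Cre-positive arrays and 11.23 and 11.59 in the Cre-negative arrays. The groups did not overlap (difference -0.70, SE 0.27, limma adjusted p = 0.481), and leaving out Cre-positive array 2 gave -0.99, array 1 -0.40. Its other probe set gave 7.92 and 9.36 in the Cre-positive arrays and 8.67 and 10.50 in the Cre-negative arrays, a lower mean with overlapping groups. Fut8, which puts the core fucose on N-linked chains, read 10.51 and 11.46 in the Cre-positive arrays and 11.37 and 11.71 in the Cre-negative arrays. Fut4, a second maker of Lewis x type structures, read 9.42 and 10.16 in the Cre-positive arrays and 9.96 and 9.94 in the Cre-negative arrays. Fut11 read 5.49 and 6.45 in the Cre-positive arrays and 6.38 and 6.37 in the Cre-negative arrays. In all 3 of these Cre-positive array 1 was below both Cre-negative arrays and array 2 was among or above them, and a second Fut8 probe set went the other way, by 1.33. Fut1, Fut7, Fut10 and Fut4-ps1 gave no signal above the filter.

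**Figure D2:**
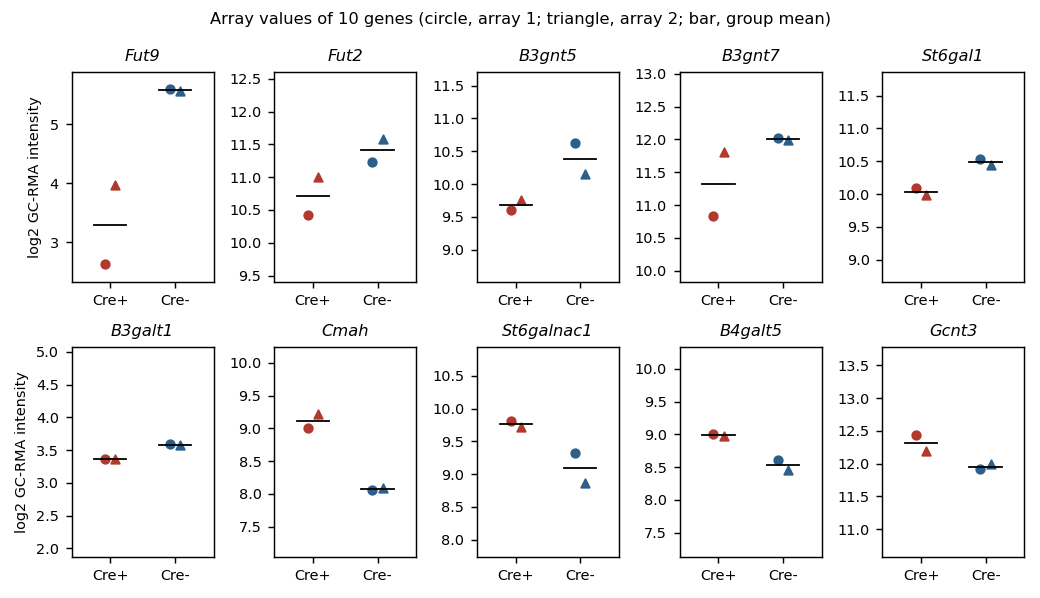
Each panel gives log2 GC-RMA intensity of 1 gene in the Cre-positive (Cre+) and Cre-negative (Cre-) arrays, with circles for array 1, triangles for array 2 and a bar for the mean of each group of 2. Vertical axes start at different values and the Fut9 panel spans a wider range. In these 10 genes, which were chosen by difference or unadjusted p, Fut9 sits at 2.63 and 3.97 below 5.59 and 5.57, and Cmah at 9.01 and 9.22 above 8.07 and 8.10.

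Sialylation genes had a median difference of 0.22 and lay on both sides of 0. Cmah, the hydroxylase that turns N-acetylneuraminic into N-glycolylneuraminic acid, measured 9.01 and 9.22 in the Cre-positive arrays and 8.07 and 8.10 in the Cre-negative arrays. Both groups were tight and well separated, with a difference of 1.03 (2.04-fold, SE 0.14, limma adjusted p = 0.244). This held for 1 probe set and partly for a second, which measured 8.56 and 8.09 in the Cre-positive arrays and 7.73 and 7.91 in the Cre-negative arrays, and whose x suffix marks possible cross-hybridisation. Another gave 8.58 and 7.37 in the Cre-positive arrays and 7.89 and 8.50 in the Cre-negative arrays, and the next 7.06 and 5.48 in the Cre-positive arrays and 6.96 and 7.79 in the Cre-negative arrays, a difference of -1.10. The mean of all 6 Cmah probe sets differed by 0.01, so no direction can be given for the gene as a whole. RefSeq lists 2 start sites for Cmah, and the 250 bases before each are shown because the probe sets disagree, although which transcript each probe set measures was not tested. The first lies at chr13:24327154-24327403 and the second at chr13:24414872-24415121 (GRCm38.p6, plus strand), and neither holds TTCNNNGAA, so no letters are in capitals.
Cmah start 1: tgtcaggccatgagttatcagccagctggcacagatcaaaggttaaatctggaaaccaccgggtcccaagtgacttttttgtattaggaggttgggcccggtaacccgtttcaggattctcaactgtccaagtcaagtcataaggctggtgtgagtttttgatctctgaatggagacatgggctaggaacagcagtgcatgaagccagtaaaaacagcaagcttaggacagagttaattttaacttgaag
Cmah start 2: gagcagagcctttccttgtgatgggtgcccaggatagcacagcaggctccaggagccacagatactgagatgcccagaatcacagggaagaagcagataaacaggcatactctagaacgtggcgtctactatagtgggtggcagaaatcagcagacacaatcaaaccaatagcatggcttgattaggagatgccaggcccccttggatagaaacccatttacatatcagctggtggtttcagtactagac

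St6galnac1, which makes sialyl-Tn by adding sialic acid to the first GalNAc and is a goblet cell enzyme, measured 9.81 and 9.71 in the Cre-positive arrays and 9.32 and 8.87 in the Cre-negative arrays. Both Cre-positive arrays were above both Cre-negative arrays, by 0.66 on average (SE 0.20, limma adjusted p = 0.407), and the difference was 0.44 without Cre-negative array 2. Its relative St6galnac2 also read above both Cre-negative arrays, by 0.22 on average, St6galnac4 lay at -0.40 with groups that touched at 7.64, and St6galnac6 measured 13.36 and 12.88 in the Cre-positive arrays around 13.12 and 13.01 in the Cre-negative arrays.

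St6gal1, which caps N-linked chains with sialic acid, measured 10.09 and 9.98 in the Cre-positive arrays and 10.54 and 10.45 in the Cre-negative arrays. The groups did not overlap, with a difference of -0.46 (SE 0.10, limma adjusted p = 0.300) that lay between -0.41 and -0.51 whichever array was left out. Its second probe set had the same order, at 6.81 and 7.77 in the Cre-positive arrays and 7.92 and 8.69 in the Cre-negative arrays. The St3gal genes, which add sialic acid to galactose, were divided, 3 higher and 3 lower. St3gal4 measured 10.68 and 10.85 in the Cre-positive arrays and 10.65 and 10.93 in the Cre-negative arrays, an overlap with an interval of -0.45 to 0.40. St3gal6 measured 10.38 and 11.22 in the Cre-positive arrays and 11.10 and 11.14 in the Cre-negative arrays, with array 1 again the low one. St3gal3 was higher by 0.37 without overlap, but its other probe set differed by -0.01 with overlapping groups. St3gal1, which caps core 1, was higher by 0.41 through Cre-positive array 1 alone. The ganglioside enzyme St3gal5 differed by 0.24 and St3gal2 lay near the bottom of the scale. Of the St8sia genes, which build sialic acid chains, St8sia4 was the 1 tested (4.20 and 4.81 in the Cre-positive arrays, 3.89 and 4.20 in the Cre-negative arrays).

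The 21 genes left untested were Galnt9, Galnt13, Galnt14, Galnt15, Galnt18, Gcnt7, B3gnt4, B3gnt8, B4galt2, St6gal2, St6galnac3, St6galnac5, St8sia1, St8sia2, St8sia3, St8sia5, St8sia6 and the 4 Fut genes named above. Their values lay between 1.86 and 3.16 in every array, and 19 of them had a lower Cre-positive mean with a median difference of -0.04. Of all 5534 untested genes 95.5% had a lower Cre-positive mean, also with a median difference of -0.04. None of the 51 tested genes had a group mean at or below the filter.

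Agreement between probe sets of a gene set a further limit. Of the 51 tested genes 31 had at least 2 probe sets above the filter, and in 17 of these all such probe sets differed in the same direction, among them B3galt5, B3galt6, B3gnt5, Fut2, Fut9 and St6gal1. When all probe sets of a gene were averaged, the difference was -1.25 for B3gnt5, -0.74 for St6gal1, -0.86 for Fut9, 0.33 for St6galnac1, 0.24 for B4galt5 and 0.16 for Gcnt3. These averages include probe sets without detectable signal, which draw a difference towards 0. Examples are the second probe sets of St6galnac1 (2.53 to 2.57) and B4galt5 (2.89 to 2.99). Of the 49 glycosylation genes in that fit, 0 lay higher and 4 lower at p under 0.05 before adjustment in limma, with no all-gene share worked out. Dimmer probe sets of B3gnt5, St6gal1 and Fut2 were also lower in array 1 than in array 2 within each genotype, as the Fut2 values above show.

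**Figure D3:**
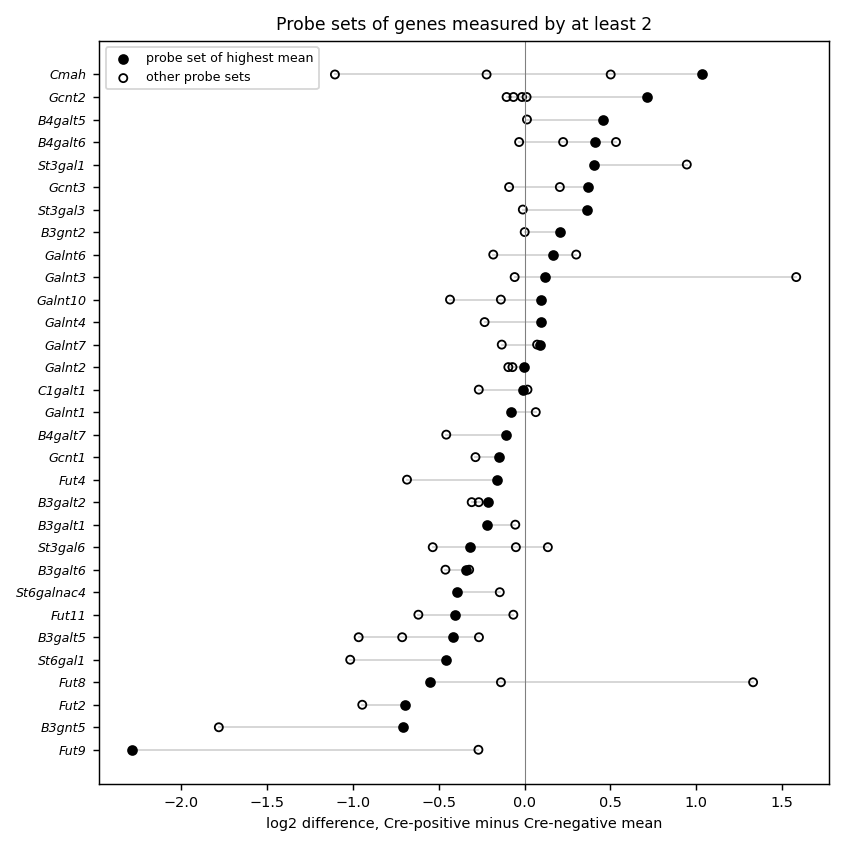
Rows are the 31 tested genes with at least 2 probe sets above the filter, and the horizontal axis is the log2 difference between the Cre-positive and the Cre-negative mean of each probe set (filled, probe set of highest mean, open, others). Cmah spans -1.10 to 1.03, and the probe sets of B3gnt5, Fut2, St6gal1 and B3galt5 all lie left of 0.

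**Figure D4:**
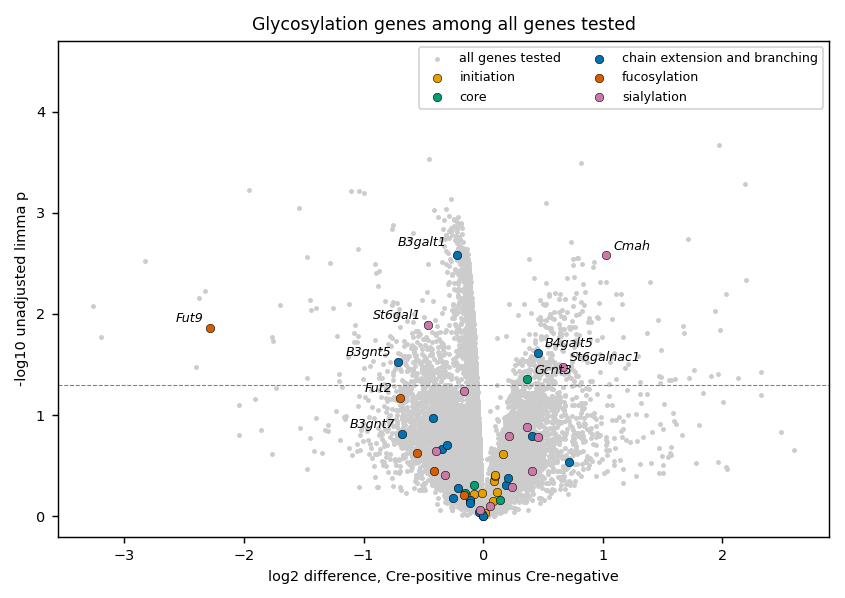
Each point is 1 of 12659 genes, with the log2 difference between the Cre-positive and Cre-negative groups on the horizontal axis, the -log10 of limma's unadjusted p on the vertical axis and a dashed line at an unadjusted 0.05. Coloured points are the 51 glycosylation genes by step. They spread through the cloud of all genes, with 4 above the line on each side.

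Neighbouring steps of the pathway, from lists drawn up by function, gave no gene that passed after adjustment over all genes in limma. Supply of sialic acid (5 tested, 0 under an unadjusted 0.05) and of fucose (6 tested, 0) gave 2 and 3 genes with a higher Cre-positive mean. Over all genes 2.54% lay higher and 8.51% lower at this threshold, beside which the next counts stand. In the supply of UDP-sugars 2 of 11 lay higher and 0 lower: Slc35d1, a nucleotide sugar transporter, at 10.88 and 11.10 in the Cre-positive arrays and 10.23 and 10.23 in the Cre-negative arrays (difference 0.76), and the UDP-galactose transporter Slc35a2 (0.31). Among 10 sulfation genes 0 lay higher and 3 lower at the same threshold. Slc35b2, which carries the sulfate donor into the Golgi, read 8.78 and 9.20 in the Cre-positive arrays and 9.78 and 9.76 in the Cre-negative arrays. Its difference was -0.78, and the others were the sulfotransferase Chst4 (-0.42) and Slc26a1, which lay near the bottom of the scale. By mean, 2 of the 10 were higher, Slc26a2 (0.45, without overlap) and Papss2 (0.25, overlapping), and 8 lower (all genes 61.5%). Of 12 other glycan enzymes 4 had higher and 8 lower means, and those past the unadjusted threshold were A4galt (-1.21), a globo-series glycolipid enzyme, and the dim sialidase Neu3 (-0.45), both lower. B4galnt2, which makes the Sd(a) structure of the colon, differed by 0.18, and its other probe sets above the filter by 0.45 and -0.63.

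The mucins that carry these chains were on the array as well. Muc2, the main gel-forming mucin, read 15.35 and 15.32 in the Cre-positive arrays and 14.84 and 14.99 in the Cre-negative arrays (difference 0.42), and Muc3 (0.59), Muc4 (0.88) and Fcgbp (0.56) were also higher in both Cre-positive arrays, against Muc1 at -1.48. Of the 14 goblet and mucin genes tested 9 had a higher Cre-positive mean (all genes 38.5%) and 5 had a lower mean. Besides Muc1, the lower means were those of Retnlb (-0.39), Muc13 (-0.255), Spink4 (-0.21) and Tff3 (-0.10). At p under 0.05 before adjustment in limma, 4 lay higher (all genes 2.54%) and 1 lower (all genes 8.51%). After adjustment 0 passed.

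Markers of other cell types were measured in the same arrays. Of 9 tested leukocyte markers, of 13 on the array, 8 had a higher Cre-positive mean, among them Ptprc (0.98), and the summed intensity of the list was 3006 and 1486 in the Cre-positive arrays and 886 and 1002 in the Cre-negative arrays. Without the neutrophil genes S100a8 and S100a9, which were bright in Cre-positive array 1, the sums were 1467 and 1429 in the Cre-positive arrays and 783 and 951 in the Cre-negative arrays. Cd79a, Cd79b, Cd68 and Itgam were at or below the filter, as was Fut7, a leukocyte fucosyltransferase. Summed epithelial markers were 238601 and 200465 in the Cre-positive arrays and 199909 and 197322 in the Cre-negative arrays, and fibroblast markers 521 and 428 in the Cre-positive arrays and 323 and 318 in the Cre-negative arrays. Most of the fibroblast sum was Vim, which other cell types also make, and without it the sums were 66.3 and 66.2 in the Cre-positive arrays and 64.3 and 63.1 in the Cre-negative arrays, with Col1a2, Dcn and Lum at or below the filter. In whole epithelial preparations fewer cells of a type and less RNA per cell cannot be told apart, and the part of these markers in the differences above was not tested.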

How the data were processed

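RNA of colon epithelium was measured on 4 Affymetrix arrays, and the sample titles do not say whether each holds a single mouse or a pool. The deposited intensity values are GC-RMA values on the linear scale (GCRMA per the submitters' processing notes, ArrayAssist per the file headers, versions not given in the sources used here) for 45101 probe sets. A second deposited table holds the same intensities rounded to whole numbers, log2 values after subtraction of a baseline, an absolute fold (a ratio) and a p-value whose test the file headers do not name. The rounded intensities differed from the first table by at most 0.5, and the deposited log2 values equalled log2 intensity minus the Cre-negative mean to within 0.000501. GC-RMA usually equalises the arrays' distributions, which would remove a shift shared by most genes.

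Probe sets were named by the platform annotation (34945 had 1 gene, 932 several, 9160 are unnamed here, 64 were controls). All 72 glycosylation genes matched the RefSeq gene table. The probe set of highest mean stood for each gene, and genes at or below the 40th percentile were left out. The log2 mean of the Cre-negative arrays was subtracted from that of the Cre-positive arrays and tested across all 12659 genes with limma 3.58.1 in R 4.3.3 (lmFit, eBayes with an intensity trend, two-sided, Benjamini-Hochberg over all genes tested). SE is the moderated standard error and SD is over n = 2. Residual degrees of freedom were 2, with 1.58 from the prior. With 2 arrays a group, exact permutation cannot reach below p = 0.333. The fit was tested on 20 simulated runs with 200 changed genes each and noise drawn independently for every array. At adjusted p under 0.05 in limma it recovered a share of 0.342 of changes of log2 1. The share was 0.84 for changes of log2 2, with 7.35 false calls per run. Noise shared between arrays was not simulated, and each gene's noise was normal with the spread already moderated by limma. In the real fit 0 genes passed, Stat3 and Fut9 included, so these shares cannot be read as the power of the real comparison. Precision is limited by the number of arrays. The labels call the samples biological replicates.

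The genes and lists were chosen with earlier results of these data known. Array values are given for genes at an unadjusted p under 0.05, for those differing by at least 0.5 without overlap, for the 3 with the highest array signal in each step (a choice of what to print, not an order of expression) and for genes with known roles in colon mucin glycans, and other genes are given as differences. Alternatives were other filters, probe set rules, scalings, variance priors, a floor, the authors' p-value, a replicate block and each array left out.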

Additional observations from a re-analysis of the deposited data

How the results depend on the processing

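Under the 12 alternatives 0 glycosylation genes passed after adjustment. Before adjustment, 4 genes were higher and 4 lower at p under 0.05. Without the filter on dim genes, with all 72 in the fit, 4 were higher and 18 lower. Of all genes that this setting adds, 95.5% had a lower Cre-positive mean. With the mean of all probe sets of a gene, and 49 glycosylation genes in the fit, 0 were higher and 4 lower. The authors' deposited p-value gave 2 higher and 2 lower. By that p-value 3 of all genes passed after adjustment, none of them a glycosylation gene. All-gene shares were not worked out under these alternatives, so the counts have no background beside them. With 1 array left out at a time the number higher ranged from 1 to 8 and the number lower from 3 to 11, the highest being without Cre-positive array 2 and the lowest number higher without Cre-negative array 2 (2 without Cre-negative array 1). Fut9 ranged from -2.95 to -1.61, Fut2 from -0.99 to -0.40, B3gnt7 from -1.16 to -0.19, B3gnt5 from -0.94 to -0.48 and Cmah from 0.92 to 1.14. The mean of all probe sets moved Cmah to 0.01, Fut9 to -0.86, B3gnt5 to -1.25, St6gal1 to -0.74, St6galnac1 to 0.33, B4galt5 to 0.24 and Gcnt3 to 0.16. Probe sets without detectable signal are part of some of these means, as for St6galnac1 and B4galt5. Centring the arrays on their medians turned the all-gene split before adjustment from 322 higher and 1077 lower into 366 and 392. The glycosylation genes stayed at 4 higher and 4 lower, and their median moved from -0.01 to 0.01. Arrays of the same replicate number deviated together (correlation 0.423 over all genes tested), but the labels name no shared litter or day and there are only 2 pairs, so the number was not taken as a pairing. With it as a replicate block 4 were higher and 6 lower, again without an all-gene share beside them. Signal near the bottom of the scale limits the 21 untested genes, Fut9 and the dim tested genes B3galt1, St3gal2 and Galnt16. Of these, Fut9 and B3galt1 are among the 4 genes lower before adjustment.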
